A study of Mus musculus with 8 samples.

Results

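The cyclin-dependent kinase inhibitors are 7 genes of 2 families: Cdkn1a (p21), Cdkn1b (p27) and Cdkn1c (p57) of the CIP/KIP family, and Cdkn2a (p16 and p19Arf), Cdkn2b (p15), Cdkn2c (p18) and Cdkn2d (p19) of the INK4 family. They were chosen by gene symbol, and all 7 were found among the 56749 features that were counted. Transcripts were counted by single-nucleus RNA sequencing of frozen visceral white adipose tissue, the fat depot around the abdominal organs, from 8 mice in 4 groups of 2. The unique molecular identifier (UMI), a tag that marks each captured molecule, makes the value of a gene a count of molecules. Cdkn1a carries an allele of the study's own making in every mouse: the genotypes were p21+/mCherry on a standard diet (the group mCherry SD, mice rep144 and rep146), p21+/mCherry on a high-fat diet (mCherry HFD, rep128 and rep129), p21+/mCherry-Tert on a high-fat diet (Tert HFD, rep134 and rep136) and p21+/mCherry-TertCi on a high-fat diet (TertCi HFD, rep138 and rep140). By the series' design text, the p21 promoter drives Tert and TertCi. Tert encodes the catalytic subunit of telomerase, mCherry is a red fluorescent protein, and the labels do not spell out TertCi. The control mice therefore carry 1 modified Cdkn1a allele too, no group has the gene intact on both chromosomes, and how many Cdkn1a UMIs come from the modified allele cannot be told. The design text names the stromal vascular fraction and p21+/- mice where the sample labels name whole visceral fat and p21+/mCherry. The labels give no ages.

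Both families stop the cell cycle before DNA synthesis, and they act on different targets. INK4 proteins bind the kinases CDK4 and CDK6 alone and keep D-type cyclins off them, so that the retinoblastoma protein stays unphosphorylated and holds back E2F transcription factors. CIP/KIP proteins bind assembled complexes of cyclins with CDK2, and at some steps with CDK4 or CDK6. Cdkn1a is a classical target of p53 and, with Cdkn2a and Cdkn2b, is widely used as a mark of senescence, a lasting arrest in which cells stay metabolically active. In fat, p27 and p18 are also known from the arrest that accompanies the maturing of adipocytes.

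Promoter sequences are shown because the Cdkn1a promoter is the part of this family that the mice were built on, and because Cdkn2b and Cdkn2c differed between groups in all 3 comparisons that include mCherry HFD over all nuclei. RefSeq (GRCm38.p6) gave a window from 250 bases before to 50 after the start for 9 start sites of 6 of the 7 members. Capitals mark matches to a p53 half-site, a GC box (GGGCGG), the cyclic AMP response element (CRE, TGACGTCA) or a TATA box (TATAAA, with TATAAG also accepted), searched on both strands. The same search covered E2F motifs (TTTCCCGC, with TTTGGCGC also accepted), the AP-1 motif TGANTCA and the E-box, whose letters are CACGTG. The windows read 5′ to 3′ on the gene's strand:
Cdkn1a upstream start, chr17:29090729-29091028, plus strand: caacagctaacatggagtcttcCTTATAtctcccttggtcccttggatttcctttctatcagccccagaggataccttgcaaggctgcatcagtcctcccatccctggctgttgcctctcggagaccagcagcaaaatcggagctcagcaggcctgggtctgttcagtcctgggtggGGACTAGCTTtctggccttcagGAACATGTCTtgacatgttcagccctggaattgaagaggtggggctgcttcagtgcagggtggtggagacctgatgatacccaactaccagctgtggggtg
Cdkn1a downstream start, chr17:29093519-29093818, plus strand: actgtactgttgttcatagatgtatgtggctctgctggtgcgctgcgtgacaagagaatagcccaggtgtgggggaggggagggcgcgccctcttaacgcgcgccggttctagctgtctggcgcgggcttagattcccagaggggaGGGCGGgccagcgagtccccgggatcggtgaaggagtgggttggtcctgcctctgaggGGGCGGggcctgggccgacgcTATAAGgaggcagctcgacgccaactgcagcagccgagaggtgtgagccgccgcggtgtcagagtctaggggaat
Cdkn2b, chr4:89310983-89311282, minus strand: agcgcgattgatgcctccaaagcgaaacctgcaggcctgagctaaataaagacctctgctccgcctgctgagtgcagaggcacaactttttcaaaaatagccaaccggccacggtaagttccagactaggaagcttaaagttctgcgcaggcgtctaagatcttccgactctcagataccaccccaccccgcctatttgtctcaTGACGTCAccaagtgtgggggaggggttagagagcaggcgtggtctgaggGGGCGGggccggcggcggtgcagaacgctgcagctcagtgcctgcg
Cdkn2c upstream start, chr4:109666707-109667006, minus strand: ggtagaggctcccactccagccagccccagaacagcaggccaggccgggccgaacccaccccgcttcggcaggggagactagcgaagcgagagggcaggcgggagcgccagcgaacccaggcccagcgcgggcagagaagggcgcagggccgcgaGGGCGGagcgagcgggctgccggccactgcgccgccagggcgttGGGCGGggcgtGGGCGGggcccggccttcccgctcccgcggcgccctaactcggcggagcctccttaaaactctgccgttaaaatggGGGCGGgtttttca

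The upstream Cdkn1a window held 2 p53 half-sites, GGACTAGCTT at -73 and GAACATGTCT at -51 from the start, and a TATA match on the opposite strand at -228. The downstream Cdkn1a window held no p53 half-site, GC boxes at -104 and -46, and TATAAG at -25. The Cdkn2b window held the CRE at -46 and a GC box at 5. The Cdkn2c window held 4 GC boxes, at -95, -51, -40 and 37. Over all 32851 windows of this length in the table, 8.36% held a p53 half-site, 35.7% a GC box, 18.8% a TATA match and 1.79% the CRE. The members' windows ranged from 44% to 77% G and C, against a median of 52.7% over all windows. These are matches of letters only.

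The 8 libraries held 23378488 to 139749876 UMIs each, and 30209 nuclei were called, 1978 to 7433 per library, with median depths of 1682 to 7133.5 UMIs per nucleus. Marker genes named clusters adipocyte-like (90 to 1732 nuclei per library), progenitor-like (195 to 1175), macrophage-like (98 to 3710), endothelial-like (8 to 212) and mural-like (20 to 125). Clusters in which a second lineage also met the marker rule, at more than 0.5 of the best score, were given no class. They held 64.1% and 54.9% of nuclei in the mCherry SD mice and 18.6% to 34.6% in the mice on the high-fat diet. These nuclei enter only the sums over all nuclei, so the classes of mCherry SD rest on the smaller part of its nuclei. Where the second lineage stayed below 0.5 of the best score the class was kept. The adipocyte-like cluster that held most of those nuclei in mCherry HFD scored 3.66 for adipocyte and 1.28 for macrophage markers. The endothelial-like cluster scored 5.02 for endothelial and 2.02 for macrophage markers. Clusters of 282 and 141 nuclei among those without a class each came wholly from 1 library. Epithelial-like nuclei numbered 64 in mCherry SD rep146, 229 in mCherry HFD rep128 and 0 in the other mice, and enter the sums over all nuclei too. Libraries shared 0 to 14 nucleus barcodes in a pair. Counts of the 2 mice of a group differed far beyond sampling noise in all 4 groups (chi-square per degree of freedom 15.1 to 122). Every mouse counted as its own replicate by design, whatever that value. Nothing in the sources ties mice to processing batches. Neither transgene label could be checked: Tert was at 3.27 to 3.98 CPM (UMIs per 1e6 UMIs of the set summed) in the mCherry libraries and 2.01 to 2.76 in the Tert and TertCi libraries over all barcodes, mCherry had 0 to 17 UMIs per library, and the 3′ ends of the inserted transcripts are not given in the sources used here.

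In called nuclei Cdkn1b had 6233 UMIs, Cdkn2c 3125, Cdkn1a 1510, Cdkn2b 698, Cdkn1c 437, Cdkn2a 265 and Cdkn2d 261. The share of nuclei with at least 1 UMI was 16.8% for Cdkn1b, 8.25% for Cdkn2c, 4.17% for Cdkn1a, 2.11% for Cdkn2b, 1.15% for Cdkn1c, 0.824% for Cdkn2d and 0.788% for Cdkn2a. A nucleus without a UMI is therefore no evidence that it lacks the transcript, and all comparisons use sums over nuclei per mouse. Reads of Cdkn2a cannot be divided between its products p16 and p19Arf, which share their 3′ exons. Cdkn1a overlaps AC167363.2 and Cdkn1c overlaps Gm44732 on the opposite strand in the GENCODE annotation used here.

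On the high-fat diet, mCherry mice had higher summed levels of Cdkn1a, Cdkn1c and Cdkn2b over all nuclei and a lower level of Cdkn2c than mCherry mice on the standard diet. In both Tert HFD and TertCi HFD, Cdkn2b was lower and Cdkn2c higher than in mCherry HFD. Of the 7 members, 4 passed the edgeR test at an adjusted p under 0.05 for diet, where 40.7% of all 21101 genes tested did. For Tert HFD against mCherry HFD 2 of 7 passed (21.8% of all genes), and for TertCi HFD against mCherry HFD 2 of 7 (35.5% of all genes). These 3 comparisons share the mCherry HFD mice. All 7 members were tested over all nuclei. A level summed over all nuclei can differ through fewer cells of a type or less RNA per cell, which cannot be told apart here, and macrophage-like nuclei made up 3.85% and 5.44% of nuclei in mCherry SD, 49.9% and 48.0% in mCherry HFD, 26.6% and 28.8% in Tert HFD and 19.9% and 15.3% in TertCi HFD.

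Cdkn1a, the CIP/KIP member that p53 induces, stood at 1.16 and 1.94 CPM in mCherry SD (18 and 47 UMIs), 12.4 and 9.61 in mCherry HFD (813 and 119 UMIs), 7.05 and 2.88 in Tert HFD (246 and 22 UMIs) and 5.44 and 3.70 in TertCi HFD (190 and 55 UMIs). Both mCherry HFD mice lay above the other 6, and all 6 mice on the high-fat diet lay above both on the standard diet. The share of all genes with such an order of mice was not counted. This limit applies to every order of mice given below, over all nuclei and within classes. Scaled by the trimmed mean of M values (TMM), which sets libraries level over most genes, Cdkn1a rose with diet by a log2 fold change of 2.36 (95% interval 1.48 to 3.24, adjusted p 0.00283 by edgeR), and no single library left out ended that call (2.11 to 2.66). Tert HFD differed from mCherry HFD by -0.80 (-1.62 to 0.02, adjusted p 0.133) and TertCi HFD by -0.80 (-1.61 to 0.01, adjusted p 0.111), so neither comparison passed. Without Tert HFD rep134, the higher of its pair, the Tert difference was -1.39 (adjusted p 0.0498), and over all barcodes the TertCi difference was -1.08 (adjusted p 0.0468).

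Cdkn1b, which holds quiescent cells out of the cycle, was at 22.0 and 23.6 CPM in mCherry SD, 38.5 and 44.5 in mCherry HFD, 28.4 and 23.2 in Tert HFD and 21.4 and 22.5 in TertCi HFD. The mCherry HFD mice were the highest of the 8, and the other 6 lay between 21.4 and 28.4 CPM. None of the differences passed: 0.40 with diet (0.04 to 0.76, adjusted p 0.0706), -0.33 for Tert (adjusted p 0.152) and -0.44 for TertCi (adjusted p 0.0579). With library totals in place of TMM the same differences were 0.86 (adjusted p 0.00806), -0.68 (0.0382) and -0.92 (0.00754), and all 3 passed. That scaling moved the median of all genes from 0.05 to 0.51 for diet, from -0.05 to -0.38 for Tert and from -0.10 to -0.57 for TertCi, and the share of passing genes that were higher from 54.6% to 79.7%, from 50.1% to 27.1% and from 45.4% to 18.9%.

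Cdkn1c, an imprinted gene of quiescent and stem-like cells, was at 0.97 and 0.99 CPM in mCherry SD, 3.47 and 2.99 in mCherry HFD, 1.23 and 0.79 in Tert HFD and 2.06 and 0.87 in TertCi HFD. Again mCherry HFD was highest and did not overlap with any other group. Cdkn1c rose with diet by 1.27 (0.26 to 2.27, adjusted p 0.0488), close to the threshold. Leaving out any of 6 libraries ended this call: without mCherry SD rep144 the value was 1.31 (adjusted p 0.141), without rep146 1.16 (0.176), without mCherry HFD rep128 1.18 (0.187), without rep129 1.32 (0.117), without Tert HFD rep134 1.26 (0.0583) and without rep136 1.24 (0.0606). DESeq2 (1.28, adjusted p 0.100), no filter on low counts (1.27, 0.0687) and all barcodes (1.43, 0.0632) ended it too. The Tert difference of -1.31 (adjusted p 0.0685) and the TertCi difference of -0.64 (adjusted p 0.255) did not pass.

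Cdkn2a, the INK4 locus best known from senescence, was at 1.49 and 0.66 CPM in mCherry SD, 1.85 and 1.37 in mCherry HFD, 1.17 and 1.31 in Tert HFD and 0.80 and 0.61 in TertCi HFD. The mice rest on 9 to 121 UMIs each, and mCherry SD overlapped with all 3 other groups. The diet difference was 0.16 (-1.03 to 1.35, adjusted p 0.828), so that the interval includes a more than 2-fold change in either direction.

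Cdkn2b, the inhibitor that TGF-beta signalling induces, was at 1.62 and 1.40 CPM in mCherry SD (25 and 34 UMIs), 6.18 and 5.41 in mCherry HFD (405 and 67 UMIs), 1.92 and 1.70 in Tert HFD (67 and 13 UMIs) and 1.69 and 1.88 in TertCi HFD (59 and 28 UMIs). Both mCherry HFD mice stood apart from the other 6, which lay between 1.40 and 1.92 CPM whatever their diet. How many of all genes set mCherry HFD apart in this way was not counted. The gene rose with diet by 1.49 (0.75 to 2.22, adjusted p 0.00886), a call lost without mCherry HFD rep128 (1.41, adjusted p 0.0581). It fell in Tert HFD against mCherry HFD, with a log2 fold change of -1.34 (-2.08 to -0.60, adjusted p 0.0257) and in TertCi HFD, with -1.23 (-1.95 to -0.51, adjusted p 0.0191). The Tert call was lost without mCherry HFD rep128 (-1.26, 0.131) or rep129 (-1.38, 0.0919), Tert HFD rep134 (-1.22, 0.0781) or rep136 (-1.39, 0.0811), or TertCi HFD rep140 (-1.32, 0.0534). The TertCi call was lost without mCherry HFD rep128 (-1.16, 0.107) or rep129 (-1.28, 0.0681), or TertCi HFD rep138 (-1.07, 0.130) or rep140 (-1.35, 0.0880). The size of these differences moved little when a library was left out, and their adjusted p moved across the threshold.

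Cdkn2c, an INK4 inhibitor known from differentiating cells, ran the other way, at 21.8 and 16.5 CPM in mCherry SD, 7.24 and 9.29 in mCherry HFD, 18.4 and 35.7 in Tert HFD and 12.7 and 29.6 in TertCi HFD. Here mCherry HFD was the lowest group and did not overlap with any other group, while the mice within Tert HFD and within TertCi HFD differed from each other by more than either group differed from mCherry SD. It fell with diet, with -1.69 (-2.95 to -0.44, adjusted p 0.0387). Cdkn2c was higher in Tert HFD by 2.12 (0.85 to 3.39, adjusted p 0.0327) and in TertCi HFD by 1.86 (0.60 to 3.11, adjusted p 0.0322). Adipocyte-like nuclei, highest in Cdkn2c on average, made up 22.9% and 27.1% of nuclei in mCherry SD, and 3.46% and 3.13% in mCherry HFD. They made up 13.8% and 26.9% in Tert HFD and 30.3% and 25.03% in TertCi HFD. Lowest in this share too was mCherry HFD. The part of that share in these differences was not tested. Within adipocyte-like, macrophage-like and progenitor-like nuclei no Cdkn2c difference passed by edgeR under the main settings. Over all barcodes the calls for diet (-1.26, 0.0857), Tert (1.54, 0.0675) and TertCi (1.35, 0.0782) were lost. With a common threshold of 1000 UMIs per nucleus those for diet (-1.56, 0.0610) and TertCi (1.62, 0.0638) were lost. The diet call was lost without mCherry SD rep144 (-1.41, 0.150) or rep146 (-1.99, 0.0563) or mCherry HFD rep128 (-1.48, 0.190) or rep129 (-1.92, 0.0826), and with library totals only (-1.22, 0.0636). The Tert call was lost without mCherry HFD rep128 (1.91, 0.172) or rep129 (2.34, 0.0938) or Tert HFD rep136 (1.37, 0.156). The TertCi call was lost without mCherry HFD rep128 (1.65, 0.170) or rep129 (2.08, 0.0777) or TertCi HFD rep140 (1.06, 0.212).

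Cdkn2d, the fourth INK4 gene, was at 0.78 and 0.66 CPM in mCherry SD, 1.88 and 1.86 in mCherry HFD, 1.23 and 0.79 in Tert HFD and 0.77 and 0.74 in TertCi HFD. The mCherry HFD mice lay above the rest, on 123 and 23 UMIs. The diet difference of 0.93 (adjusted p 0.0942) did not pass, nor did Tert (-0.52, 0.355) or TertCi (-0.83, 0.128). With library totals only it passed for diet (1.38, 0.0396) and TertCi (-1.30, 0.0474), and over all barcodes for TertCi (-1.32, 0.0465).

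**Figure D1:**
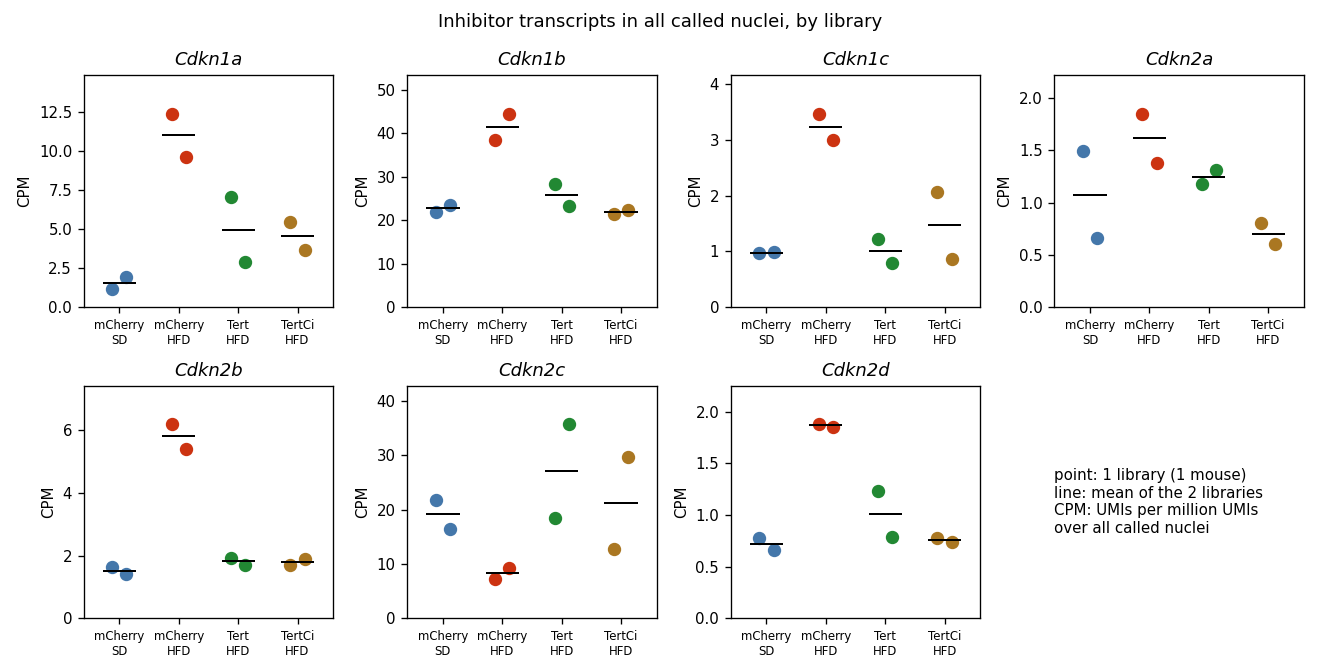
Level of each of the 7 inhibitors in all called nuclei, in CPM of the library's nuclei, with 1 point per mouse and a line at the mean of the 2 mice of each group. The 2 mCherry HFD mice are the highest of the 8 for Cdkn1a, Cdkn1b, Cdkn1c, Cdkn2b and Cdkn2d. They are the lowest for Cdkn2c (7.24 and 9.29 CPM), and for Cdkn2a they overlap with mCherry SD. CPM are scaled by library totals. With that scaling the median log2 fold change of all genes was 0.51 for diet, -0.38 for Tert and -0.57 for TertCi. How many of all genes have such an order was not counted.

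Tert HFD and TertCi HFD were compared with each other directly, a contrast between those 4 mice whose spread was estimated from all 8. None of the 7 members passed, as did none of the 21101 genes tested by edgeR (1900 had an unadjusted p under 0.05). DESeq2 called 174 genes. None of the 3 members to which it gave an adjusted p (Cdkn1a, Cdkn1b and Cdkn2c) was among them. For Cdkn1a the difference was 0.00 with a 95% interval of -0.84 to 0.84, for Cdkn2b it was -0.11 (-0.87 to 0.65), and for Cdkn2c it was 0.27 (-0.95 to 1.48). A difference of up to those bounds in either direction is not excluded by these intervals.

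The number of members that passed rests on few mice. Leaving out mCherry HFD rep128 left 1 of 7 for diet and 0 for Tert and for TertCi, in fits that called 18.4%, 3.89% and 13.8% of all genes. Leaving out mCherry HFD rep129 left 2, 0 and 0 (24.0%, 6.36% and 19.0% of genes). Leaving out mCherry SD rep144 or rep146 left 2 for diet (20.8% and 29.4%). For Tert, leaving out Tert HFD rep136 left 0 (6.59%) and TertCi HFD rep140 left 1 (12.0%), and for TertCi, leaving out rep138 left 1 (14.4%) and rep140 left 0 (11.5%). The share of all genes called was lower in each of these fits too. Over all barcodes 2 members passed for diet (38.4% of genes) and 1 for Tert (21.1%). For TertCi 4 passed with library totals only (38.6%) and 1 with a common threshold of 1000 UMIs per nucleus (31.4%). That threshold replaced the library thresholds of 987 to 4704 UMIs, and lay below all of them but that of Tert HFD rep136. It is called at least 1000 UMIs in the closing sections.

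Levels by class of nucleus follow, as a description with no test, since the classes come from clusters of the same nuclei. Clusters were made without the 7 members among the variable genes. For Cdkn2c the adipocyte-like nuclei had the highest mean, 31.3 ± 16.0 CPM (SD over 8 mice, 17.9 to 60.9). Mural-like nuclei followed at 16.6 ± 12.2 CPM, then macrophage-like at 8.57 ± 1.64, lymphatic endothelial-like at 7.97 ± 3.91 (4 mice), endothelial-like at 7.58 ± 6.53 (7 mice) and progenitor-like at 5.77 ± 1.78. The lowest adipocyte-like value of any mouse, 17.9 CPM, lay above the highest macrophage-like value, 10.3, and the highest progenitor-like value, 8.68. The adipocyte-like range overlapped with the mural-like and the endothelial-like range (up to 19.6 CPM), and the 4 lower classes did not differ beyond their spread.

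Cdkn1b had the reverse order at its lower end. Adipocyte-like nuclei were lowest at 16.1 ± 7.82 CPM, followed by mural-like at 26.3 ± 10.5, macrophage-like at 34.5 ± 8.20, progenitor-like at 37.6 ± 4.91, endothelial-like at 38.8 ± 9.58 and lymphatic endothelial-like at 44.9 ± 27.7. Neighbours in this order overlapped, but no adipocyte-like value other than 31.9 CPM in mCherry HFD rep129 reached the lowest progenitor-like value of 30.2. Cdkn1c was at 3.51 ± 3.52 CPM in endothelial-like and 3.49 ± 1.94 in progenitor-like nuclei, against 0.814 ± 0.722 to 1.43 ± 1.73 in the other classes. Cdkn1a spanned 2.09 ± 2.18 CPM in progenitor-like to 9.68 ± 5.67 in lymphatic endothelial-like nuclei, the latter from 4 mice, all on the high-fat diet and 2 of them mCherry HFD, so that the order of classes cannot be told apart from the groups they hold. The ranges of all classes overlapped. Cdkn2b was at 4.19 ± 3.25 CPM in adipocyte-like nuclei and 1.62 to 2.01 in the other classes, and these overlapped. Cdkn2a (0.850 to 2.04 CPM) and Cdkn2d (0.574 to 1.28) had no order beyond their spread.

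Depth differs between classes, so each nucleus was also thinned to 1000 UMIs. The share of adipocyte-like nuclei with a Cdkn2c UMI was then 3.13% and 1.98% in mCherry SD, 2.09% and 2.09% in mCherry HFD, 3.43% and 5.96% in Tert HFD, and 1.92% and 4.89% in TertCi HFD. Macrophage-like nuclei held 0.601% to 1.08% and progenitor-like nuclei 0.372% to 1.21%, so these classes did not overlap with the adipocyte-like nuclei at equal depth either. Without thinning, the adipocyte-like shares were 11.7% to 28.1%, at median depths of 2085 to 16775 UMIs per nucleus. In barcodes of at most 100 UMIs, which hold free RNA, Cdkn2c was at 9.20 to 36.1 CPM.

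**Figure D2:**
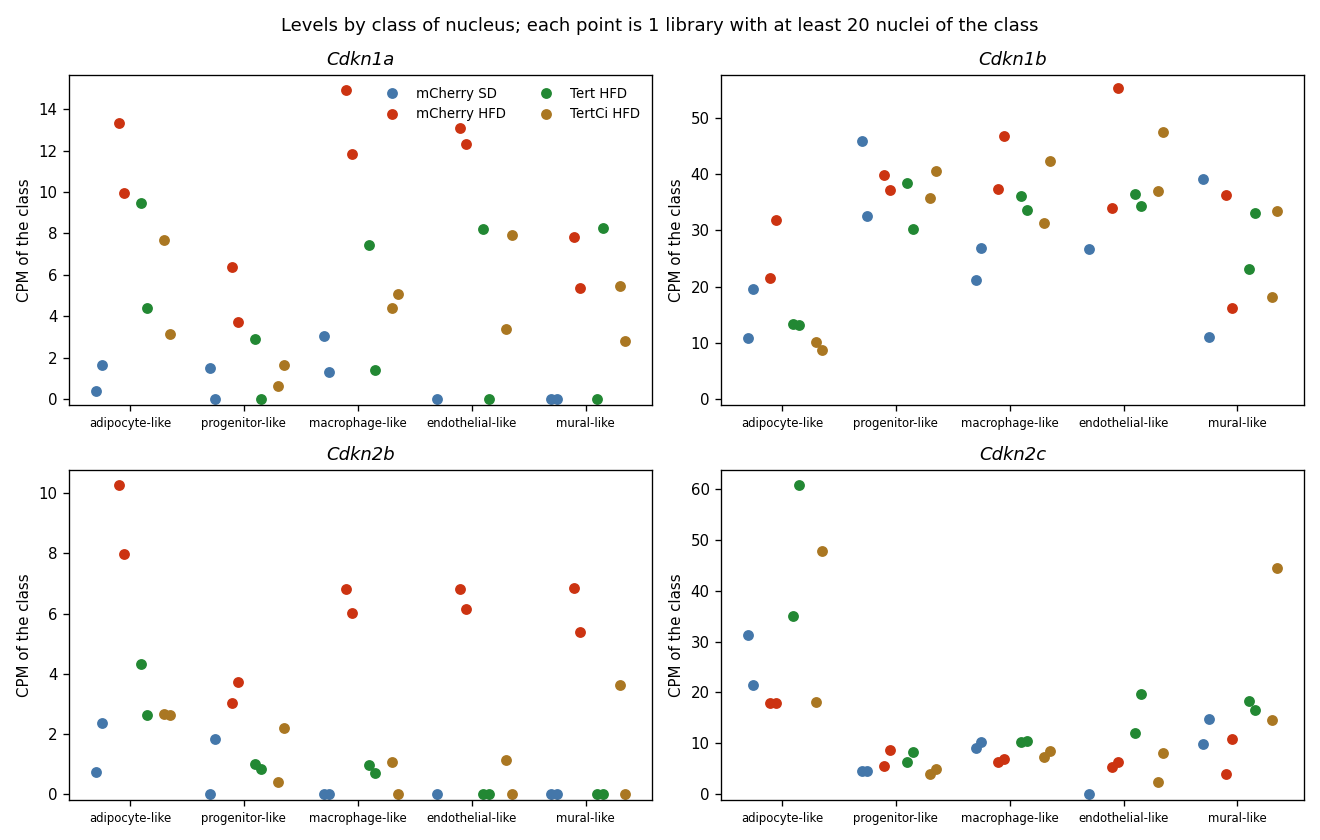
Levels of Cdkn1a, Cdkn1b, Cdkn2b and Cdkn2c in CPM of each class of nucleus, with 1 point per mouse that had at least 20 nuclei of the class, coloured by group. Cdkn2c is highest on average in adipocyte-like nuclei (17.9 to 60.9 CPM), and Cdkn1b is lowest on average there. The mCherry HFD points for Cdkn2b lie above the other groups in each of the 5 classes. Over all mice the endothelial-like class held 16 Cdkn2b UMIs and the mural-like class 10. How many of all genes have such an order was not counted, and the part of free RNA in it was not tested.

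Within adipocyte-like nuclei, Cdkn1a and Cdkn2b were higher on the high-fat diet in mCherry mice. Of the 4 members with enough UMIs to be tested (Cdkn1a, Cdkn1b, Cdkn2b and Cdkn2c), 2 passed for diet, where 26.9% of 15397 genes did. None of the 4 passed for Tert HFD (10.8% of genes) or TertCi HFD (24.8%) against mCherry HFD. Cdkn1c, Cdkn2a and Cdkn2d had at most 21 UMIs in any mouse and were not tested. The class was made up of different clusters in the groups. One cluster held 367 of 583 and 620 of 812 adipocyte-like nuclei in mCherry SD and 6 and 8 in mCherry HFD, where another held 153 of 257 and 58 of 90. The pooled level of Cdkn1a was 1.72 CPM in the first and 9.06 in the second, and that of Cdkn2b 1.86 and 4.15. The second had at least 58 nuclei in every mouse. Within it Cdkn1a was at 0 and 1.47 CPM in mCherry SD, 14.5 and 8.71 in mCherry HFD, 10.4 and 6.97 in Tert HFD and 9.13 and 6.52 in TertCi HFD, so that all 6 mice on the high-fat diet again lay above both others. Cdkn2b there was at 0 and 2.94 CPM in mCherry SD and 8.72 and 2.49 in mCherry HFD (33 and 2 UMIs), and the groups overlapped. A further cluster held 16 and 27 nuclei of the mCherry SD mice and 97 and 22 of the mCherry HFD mice. There Cdkn2b was at 0 and 0 CPM in mCherry SD, 14.4 and 27.0 in mCherry HFD (20 and 4 UMIs), 5.28 and 6.04 in Tert HFD and 2.96 and 2.79 in TertCi HFD, and mCherry HFD did not overlap with the other groups. In this further cluster Cdkn1a was at 0 and 4.83 CPM in mCherry SD (0 and 1 UMIs) and 10.8 and 20.3 in mCherry HFD. It was at 9.63 and 0 CPM in Tert HFD and 7.31 and 0.697 in TertCi HFD. Tert HFD rep136 and TertCi HFD rep140 thus did not lie above both mCherry SD mice there. In the first cluster the 6 and 8 mCherry HFD nuclei had no Cdkn1a UMI. These levels within single clusters were not tested.

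Cdkn1a in adipocyte-like nuclei was at 0.364 and 1.62 CPM in mCherry SD (1 and 9 UMIs), 13.3 and 9.98 in mCherry HFD (70 and 10 UMIs), 9.48 and 4.38 in Tert HFD (55 and 10 UMIs) and 7.67 and 3.13 in TertCi HFD (101 and 12 UMIs). All 6 mice on the high-fat diet lay above both on the standard diet, and the mCherry HFD mice above the other 4. It rose with diet by 2.98 (1.58 to 4.39, adjusted p 0.00863), lost without mCherry HFD rep128 (2.73, 0.102). The value was 4.47 (adjusted p 0.0274) without mCherry SD rep146, which leaves 1 UMI in that group. The differences of Tert HFD (-0.41, adjusted p 0.633) and TertCi HFD (-0.57, 0.430) from mCherry HFD did not pass. Cdkn2b was at 0.728 and 2.34 CPM in mCherry SD (2 and 13 UMIs), 10.3 and 7.98 in mCherry HFD (54 and 8), 4.31 and 2.63 in Tert HFD (25 and 6) and 2.66 and 2.61 in TertCi HFD (35 and 10). Again both mCherry HFD mice stood above all others. It rose with diet by 2.07 (0.91 to 3.22, adjusted p 0.0168), lost without mCherry SD rep144 (1.60, 0.103) or mCherry HFD rep128 (1.86, 0.173) and with DESeq2 (2.14, 0.0544). Without mCherry SD rep146 it was 3.16 (0.0330). Tert (-1.06, 0.177) and TertCi (-1.32, 0.0632) did not pass. The TertCi difference passed under 4 alternatives: library totals only (-1.83, 0.0253), only the 2 groups in the fit (-1.31, 0.0389), doublets kept (-2.15, 0.0444) and nuclei classed one by one from their marker score (-1.62, 0.0359).

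Cdkn2c in adipocyte-like nuclei was at 31.3 and 21.4 CPM in mCherry SD, 17.9 and 18.0 in mCherry HFD, 35.0 and 60.9 in Tert HFD and 18.1 and 47.8 in TertCi HFD. Lowest were the mCherry HFD mice, and 1 TertCi HFD mouse (rep138) lay beside them. The diet difference was -0.95 (-2.15 to 0.24, adjusted p 0.213), and passed with no filter on low counts (-1.04, 0.00729) and with only the 2 groups in the fit (-0.94, 0.0376). The Tert difference of 1.80 (0.61 to 2.99, adjusted p 0.0578) and the TertCi difference of 1.38 (0.20 to 2.55, adjusted p 0.0839) did not pass by edgeR, while DESeq2 called both (1.80 and 0.00787; 1.37 and 0.0400), as did the fit with no filter (1.87 and 1.22e-07; 1.47 and 3.40e-05). With only the 2 groups in the fit the Tert difference passed (1.81, 0.0294). It also passed without mCherry SD rep144 (1.84, 0.0497), Tert HFD rep134 (2.32, 0.0226), TertCi HFD rep138 (1.82, 0.0201) or rep140 (1.84, 0.0174), and the TertCi difference without Tert HFD rep134 (1.40, 0.0445) or rep136 (1.42, 0.0398) or TertCi HFD rep138 (2.00, 0.0242). The highest mouse, Tert HFD rep136, drew 658 of its 857 adipocyte-like nuclei from a cluster that held at most 85 nuclei of any other mouse and had a pooled Cdkn2c level of 58.7 CPM. Its level was 60.6 CPM in that cluster, and 55.8, 48.0 and 72.5 in its other adipocyte-like clusters, on 94, 35 and 70 nuclei, so that it was high in all 4. Without Tert HFD rep136 the Tert difference was at the lowest of its range, 1.23. Cdkn1b was at 10.9 and 19.6 CPM in mCherry SD, 21.5 and 31.9 in mCherry HFD, 13.3 and 13.1 in Tert HFD and 10.1 and 8.62 in TertCi HFD, with no difference past the threshold (TertCi -0.93, adjusted p 0.0688).

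Other values moved with the mCherry HFD adipocyte-like nuclei. They numbered 257 and 90, against 480 to 1732 in the other 6 mice, and had median depths of 16775 and 7856 UMIs, against 2085 to 9674. All 11 progenitor, 10 macrophage and 12 adipocyte markers had UMIs in the adipocyte-like nuclei of every mouse, except 1 macrophage marker at 0 in mCherry SD rep144. The summed level of the progenitor markers was 1525 and 2611 CPM, against 168 to 316 in the other groups, and that of the macrophage markers 1280 to 1334, against 600 to 863. The cycling markers summed to 44.9 to 51.4 CPM, against 5.82 to 16.2. The adipocyte markers themselves summed to 6422 and 8578 CPM, against 6565 to 10790. The part of these other transcripts in the Cdkn1a and Cdkn2b levels was not tested. Free RNA in barcodes of at most 100 UMIs held Cdkn1a at 20.8 and 33.5 CPM in mCherry HFD, above the level in adipocyte-like nuclei, against 1.88 to 14.0 in the other groups.

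Within macrophage-like nuclei, Cdkn1a and Cdkn2b were higher on the high-fat diet, and Cdkn2b was lower in both Tert HFD and TertCi HFD than in mCherry HFD. The same 4 members were tested: 2 passed for diet (21.1% of 13586 genes), 1 for Tert (19.2%) and 2 for TertCi (25.7%). Cdkn1a was at 3.03 and 1.28 CPM in mCherry SD (1 UMI each), 14.9 and 11.8 in mCherry HFD (407 and 53 UMIs), 7.46 and 1.37 in Tert HFD (47 and 2) and 4.41 and 5.07 in TertCi HFD (21 and 6). The mCherry HFD mice stood above the other 6, and the range of Tert HFD overlapped with both remaining groups. Cdkn1a rose with diet by 2.75 (0.82 to 4.67, adjusted p 0.0448), on 2 UMIs in all in mCherry SD, and fell in TertCi HFD against mCherry HFD, with -1.41 (-2.44 to -0.39, adjusted p 0.0446). The Tert difference of -1.19 (-2.14 to -0.25, adjusted p 0.0734) did not pass. Without Tert HFD rep134 it was -3.03 (adjusted p 0.0136).

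Both Cdkn1a calls in macrophage-like nuclei were lost in 6 of 8 fits without a library. The diet call was lost without mCherry SD rep144 (3.24, 0.117) or rep146 (1.94, 0.432), mCherry HFD rep128 (2.50, 0.152) or rep129 (2.85, 0.0623), and TertCi HFD rep138 (2.75, 0.0626) or rep140 (2.72, 0.0559). The TertCi call was lost without the same libraries: mCherry SD rep144 (-1.36, 0.0692) or rep146 (-1.35, 0.0690), mCherry HFD rep128 (-1.19, 0.304) or rep129 (-1.53, 0.0916), and TertCi HFD rep138 (-1.24, 0.346) or rep140 (-1.42, 0.116). DESeq2 called neither (2.73, 0.102 for diet and -1.41, 0.178 for TertCi). The diet call was also lost with doublets kept (2.66, 0.0513) and at Leiden resolution 2 (2.62, 0.0574).

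Neither mCherry SD mouse had a Cdkn2b UMI in macrophage-like nuclei. The gene was at 6.82 and 6.03 CPM in mCherry HFD (186 and 27 UMIs), 0.953 and 0.687 in Tert HFD (6 and 1 UMIs), and 1.05 and 0 in TertCi HFD (5 and 0 UMIs). Both mCherry HFD mice lay above all others, and none of the other 6 exceeded 1.05 CPM. Against a floor of 3 UMIs over both mCherry SD mice (2.70 CPM), the pooled mCherry HFD level of 6.71 CPM was at least 2.49-fold higher. The edgeR test for any diet difference passed (adjusted p 0.0392), and that p does not test the bound. The diet call was lost without mCherry SD rep144 or rep146. Cdkn2b fell in Tert HFD, with -2.75 (-4.13 to -1.37, adjusted p 0.0116) and in TertCi HFD, with -2.83 (-4.31 to -1.36, adjusted p 0.0107). Both calls held in each of 4 fits without a library in which the gene was still tested. Outside mCherry HFD no mouse had more than 6 Cdkn2b UMIs in these nuclei. The gene thus passed the filter on low counts through the mCherry HFD mice, where it was high. Those 4 fits are therefore no independent support for either call. DESeq2 called neither (-2.83, 0.107 and -3.07, 0.0786). The summed level of the progenitor markers in macrophage-like nuclei was 405 to 805 CPM in mCherry HFD, against 186 to 330 in the other groups. Free RNA held Cdkn1a in mCherry HFD above its macrophage-like level too, at 20.8 and 33.5 CPM against 14.9 and 11.8. The part of either in the Cdkn1a and Cdkn2b differences was not tested. Cdkn2c, at 6.24 to 10.3 CPM, and Cdkn1b, at 21.2 to 46.9 CPM, had no difference past the threshold. With nuclei classed by marker score the diet difference of Cdkn2c passed at -1.41 (adjusted p 0.0415), against -0.74 here. With the common threshold of 1000 UMIs in place of the library thresholds, the Tert difference of Cdkn2c passed at 0.98 (0.0444).

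The make-up of the macrophage-like nuclei differed between the groups. Lipid-associated macrophages, which take up the lipid of dying adipocytes and express Trem2 and Gpnmb, made up 4.08% and 6.75% of macrophage-like nuclei in mCherry SD, 50.4% and 38.0% in mCherry HFD, 27.9% and 51.3% in Tert HFD and 27.0% and 31.1% in TertCi HFD. These nuclei include 526 of the 564 nuclei of a cycling cluster described further on, among 3539 in all, 334 and 76 of them from the mCherry HFD mice, 42 and 20 from Tert HFD and 34 and 17 from TertCi HFD. Of the 3539, 1037 formed a subcluster led by Tmem267, Taco1 and Ksr2, with a lipid-associated score of 0.90 and a median of 2956 UMIs. The other subclusters of this name scored 1.84 and 1.15. Within lipid-associated nuclei Cdkn2b was at 8.53 and 7.28 CPM in mCherry HFD. Neither Tert HFD mouse had a UMI there. Against a floor of 3 UMIs over both mice (1.25 CPM), Cdkn2b was at least 6.72-fold lower. The edgeR test for any difference passed (adjusted p 0.0116), and that p does not test the bound. Only in mCherry HFD did both mice of a fitted group have Cdkn2b UMIs. The gene thus passed the filter on low counts through the group where it was high. It was 1 of 4 members tested, where 14.3% of genes passed, and its call was lost without Tert HFD rep134. In TertCi HFD it was at 3.19 and 0 CPM, a difference of -1.63 (adjusted p 0.199), with 15.9% of genes passing. With the common threshold of 1000 UMIs, which admitted shallower nuclei in all libraries but Tert HFD rep136, that difference was -2.46 and passed (0.0135). The Tert difference was then -3.08 (0.00641). With the nuclei of the cycling cluster left out, an alternative chosen after seeing the data, Cdkn2b was at 6.62 and 5.51 CPM in mCherry HFD (75 and 8 UMIs), 0 and 0 in Tert HFD and 2.78 and 0 in TertCi HFD (3 and 0 UMIs). The mCherry HFD mice still lay above the other 4, on too few UMIs for the test, so that the call rests on a sum that includes the cycling nuclei. Cdkn1a was at 15.2 and 11.2 CPM in mCherry HFD, 17.2 and 2.80 in Tert HFD and 11.2 and 10.7 in TertCi HFD. The groups overlapped, and neither the Tert difference (-0.14, adjusted p 0.897) nor the TertCi difference (-0.20, 0.845) passed, nor did they without the cycling cluster (-0.29, 0.767 and -0.12, 0.919). With the same common threshold the TertCi difference was -1.38 and passed (adjusted p 0.0365). The sign of both turned without mCherry HFD rep128 (0.11 and 0.079), and that of Tert without rep136 (0.33).

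Perivascular macrophages, the resident macrophages of fat with Lyve1 and Cd163, held Cdkn1a at 6.82 and 9.80 CPM in mCherry HFD, 3.40 and 0 in Tert HFD, and 0.739 and 1.85 in TertCi HFD, with no UMI in mCherry SD. The pooled mCherry HFD level was at least 2.10-fold that of the mCherry SD floor of 3.48 CPM. They had too few UMIs for a test of any member but Cdkn1b, which did not pass (10.6% to 17.3% of genes did). A further subcluster, led by Myom1, Gm13710 and Clec7a, that no marker list named held 27.0% and 37.9% of macrophage-like nuclei in mCherry HFD and 0% to 1.72% elsewhere, with Cdkn1a at 20.0 and 14.6 CPM and Cdkn1b at 58.3 and 77.5 in the mCherry HFD mice. A subcluster led by many of the same genes was named lipid-associated at a finer subclustering and with doublets kept. It was so named with the members among the variable genes and with the common threshold of 1000 UMIs too. With that threshold the name also covered a subcluster of 3432 nuclei led by Cd226 and Thsd4. The lipid-associated shares, and the values in lipid-associated nuclei under those settings, therefore depend on this naming.

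A cluster of 564 macrophage-like nuclei led by genes of dividing cells (Neil3, Top2a, Knl1) held Cdkn1a at 20.1, Cdkn2a at 6.77 and Cdkn2d at 4.60 CPM pooled over mice. Most of these nuclei (349 and 84) came from the mCherry HFD mice, so pooled levels lean on those mice. At least 20 of these nuclei were present in 5 mice, and each could be set against the other macrophage-like nuclei of its mouse. Cdkn2c was higher in the cycling cluster in 5 of 5 mice: 19.5 against 4.55 CPM in mCherry HFD rep128, 19.6 against 5.82 in rep129, 44.3 against 8.09 in Tert HFD rep134, 98.1 against 7.77 in rep136 (on 4 UMIs) and 31.9 against 6.12 in TertCi HFD rep138. Cdkn1a was higher in it in 4 of 5: 20.4 against 14.2 CPM in mCherry HFD rep128, 19.6 against 11.2 in rep129, 27.7 against 6.23 in Tert HFD rep134, 0 against 1.41 in rep136 and 5.32 against 4.37 in TertCi HFD rep138, the last on 1 UMI in the cluster. Cdkn2b was at 15.6 against 5.71 CPM and 16.8 against 5.10 in the mCherry HFD mice, and on at most 1 UMI in the cycling nuclei of the other 3. Cdkn1b showed no common direction (37.3 against 37.5 CPM in rep128, 39.3 against 47.6 in rep129, 30.4 against 36.4 in rep134, 0 against 34.6 in rep136 and 53.2 against 30.4 in rep138). Cdkn2a was at 7.79 against 1.78 CPM in rep128 (24 UMIs in the cluster), at 0 against 1.85 in rep134, and on 1 UMI in the cluster in each of the other 3 mice. Cdkn2d was at 4.54 against 1.86 CPM in rep128 and 5.61 against 1.70 in rep129, and on at most 1 UMI in the cluster elsewhere. A cluster against the rest of its class is a description, with no test.

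The cycling cluster made up 0% and 3.07% of macrophage-like nuclei in mCherry SD, 9.41% and 6.08% in mCherry HFD, 4.96% and 2.73% in Tert HFD and 3.16% and 6.29% in TertCi HFD. The summed level of 6 cycling markers in all macrophage-like nuclei ran from 9.09 to 34.6 CPM for the mCherry SD mice and from 123 to 139 for the mCherry HFD mice. The ranges were 35.0 to 75.6 in Tert HFD and 50.4 to 85.4 in TertCi HFD. With the cluster left out, an alternative chosen after seeing the data, the Cdkn1a difference between Tert HFD and mCherry HFD in macrophage-like nuclei passed (-1.35, adjusted p 0.0445), and the diet call of Cdkn2b did not (adjusted p 0.0542). The other Cdkn1a and Cdkn2b calls in macrophage-like nuclei held without it.

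**Figure D3:**
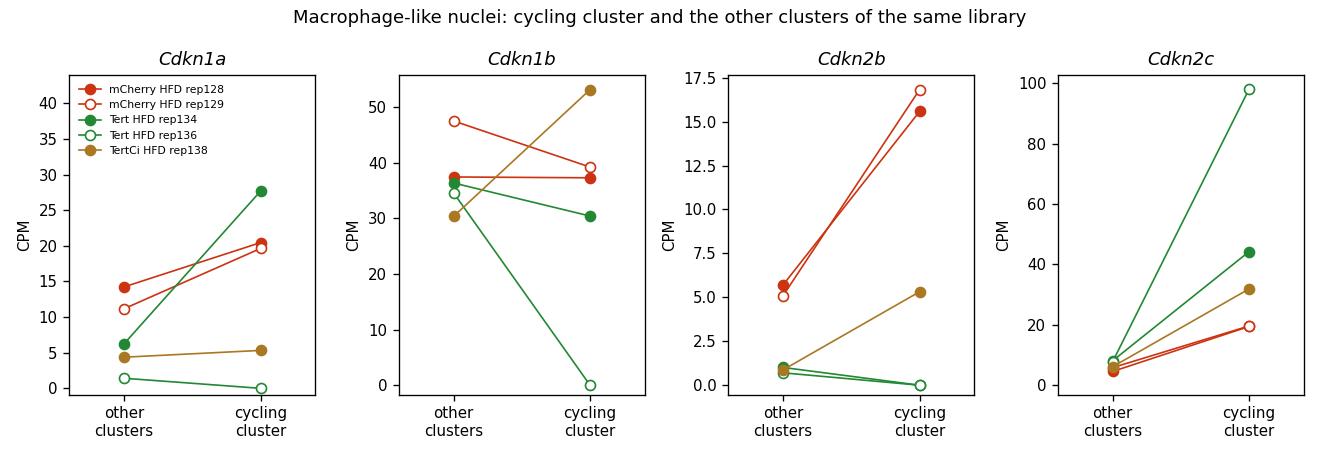
Levels of Cdkn1a, Cdkn1b, Cdkn2b and Cdkn2c, in CPM, in the cycling macrophage-like cluster and in the other macrophage-like clusters of the same mouse, joined by a line, for the 5 mice with at least 20 nuclei in the cluster. All 5 lines rise for Cdkn2c, from 4.55 to 8.09 CPM up to 19.5 to 98.1 (the highest on 4 UMIs), and 4 of 5 rise for Cdkn1a, 1 of them (TertCi HFD rep138) on 1 UMI in the cluster.

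In progenitor-like nuclei, the fat cell precursors and fibroblasts, Cdkn1b (30.2 to 45.9 CPM) and Cdkn2c (3.85 to 8.68 CPM) could be tested, and neither passed in any comparison, where 11.4% of genes did for diet, 10.5% for Tert and 19% for TertCi. Cdkn1a was at 1.48 and 0 CPM in mCherry SD, 6.37 and 3.72 in mCherry HFD (57 and 6 UMIs), 2.92 and 0 in Tert HFD and 0.607 and 1.64 in TertCi HFD. As in adipocyte-like, macrophage-like and endothelial-like nuclei the mCherry HFD mice were highest, here on too few UMIs for the test. Cdkn2b followed the same order, with 3.02 and 3.72 CPM in mCherry HFD and 0 to 2.19 elsewhere. Macrophage markers summed to 455 to 555 CPM in the progenitor-like nuclei of mCherry HFD, against 151 to 336 in the other groups, and cycling markers to 24.9 to 31.6, against 2.96 to 9.92. Their part in this order was not tested. Endothelial-like nuclei held Cdkn1a at 13.1 and 12.3 CPM in mCherry HFD, 8.23 and 0 in Tert HFD, 3.37 and 7.93 in TertCi HFD and no UMI in the mCherry SD mouse with enough nuclei, and Cdkn2b at 6.81 and 6.15 CPM in mCherry HFD against 0 to 1.12. In mural-like nuclei, the pericytes and smooth muscle of vessels, Cdkn1a was highest in Tert HFD rep136 (8.28 CPM on 1 UMI), against 7.84 and 5.38 CPM in mCherry HFD. These nuclei held Cdkn2b at 6.86 and 5.38 CPM in mCherry HFD against 0 to 3.63. Counting is thin here: apart from mCherry HFD rep128, no endothelial-like or mural-like library had more than 9 Cdkn1a UMIs. For Cdkn2b the endothelial-like class held 16 UMIs over all mice and the mural-like class 10. Cdkn1b was the 1 member tested in these classes, and it did not pass in any comparison (of all genes, 3.17% passed for diet, 10.5% for Tert and 18.1% for TertCi in endothelial-like nuclei, and 11.6%, 4.9% and 9.74% in mural-like nuclei).

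Whether a difference was itself larger in 1 class than in another was tested with limma on the per-mouse difference between classes, for adipocyte-like, progenitor-like and macrophage-like nuclei in pairs. Cdkn1b and Cdkn2c could be tested in all 3 pairs, Cdkn1a and Cdkn2b in adipocyte-like minus macrophage-like nuclei only, and the other 3 members in none. No tested member passed for diet, Tert or TertCi, where in adipocyte-like minus progenitor-like nuclei 7.08% of genes passed for diet, 2.63% for Tert and 5.64% for TertCi. The shares were 7.28%, 0.682% and 3.32% in adipocyte-like minus macrophage-like nuclei, and 6.17%, 0.0641% and 0.577% in progenitor-like minus macrophage-like nuclei. For Cdkn2c, adipocyte-like minus progenitor-like nuclei gave -1.20 for diet (adjusted p 0.175), 1.45 for Tert (0.168) and 1.56 for TertCi (0.0963). For Cdkn2b, adipocyte-like minus macrophage-like nuclei gave -2.17 for diet (0.187) and 2.04 for TertCi (0.317) at a prior count of 2. These sizes depend on the prior count, since mCherry SD had no Cdkn2b UMI in macrophage-like nuclei and 1 TertCi HFD mouse had none: they were -3.88 and 3.05 at a prior count of 0.5, and -1.29 and 1.40 at 5.

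**Figure D4:**
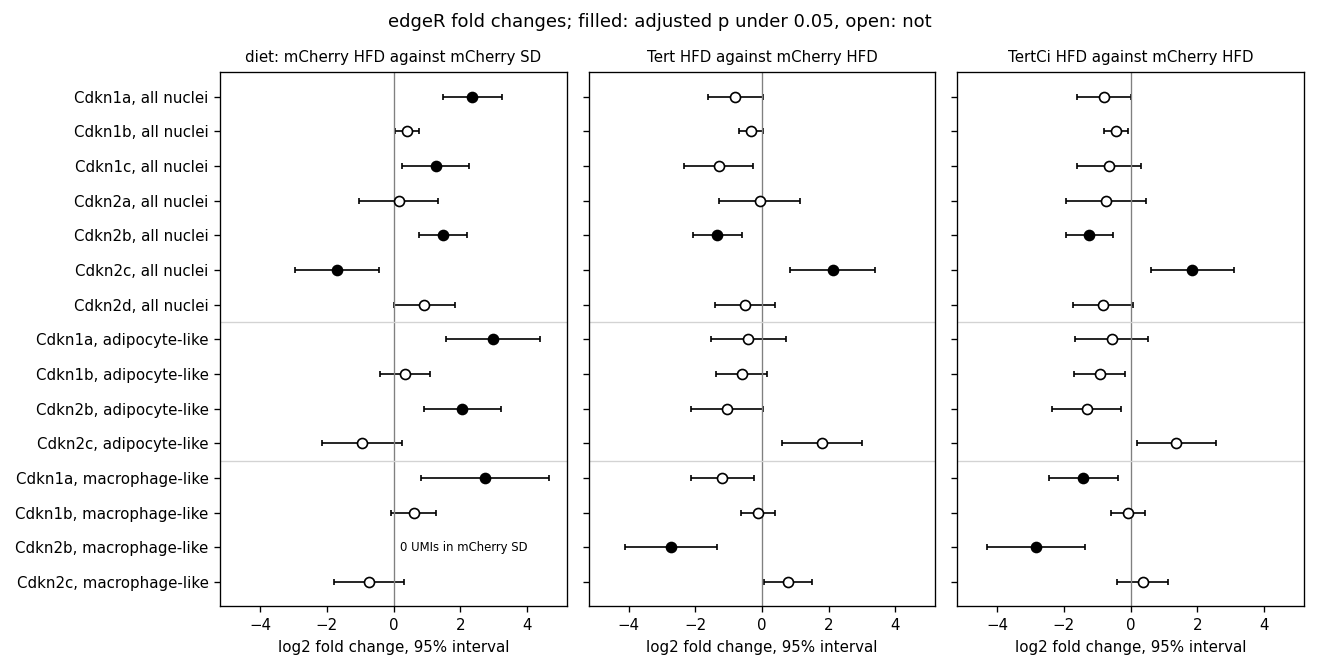
Log2 fold changes by edgeR with 95% intervals for the members in all nuclei, adipocyte-like nuclei and macrophage-like nuclei, in the diet, Tert and TertCi comparisons, with filled points for an adjusted p under 0.05. Cdkn2b lies left of 0 for Tert and TertCi in all 3 sets of nuclei and right of 0 for diet in the 2 sets drawn, and Cdkn2c lies on the opposite side in each. All nuclei include both classes, and the comparisons share the mCherry HFD mice, so these signs are not independent. Within the classes no Cdkn2c value passed, and Cdkn2b in adipocyte-like nuclei passed for diet only. The diet value of Cdkn2b in macrophage-like nuclei is left out because mCherry SD had 0 UMIs.

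UMIs of Cdkn1a and Cdkn2b were also counted together. Of 30209 nuclei, 1261 had a Cdkn1a UMI, 638 a Cdkn2b UMI and 93 both. In adipocyte-like nuclei 22 of 5306 had both (233 and 141 had each), and in macrophage-like nuclei 32 of 8637 (433 and 205). Of all nuclei with a Cdkn2b UMI 14.6% also had one of Cdkn1a, against 4.17% of all nuclei, and of those with Cdkn1a 7.38% had Cdkn2b, against 2.11%. Deep nuclei are more likely to show any gene, so these shares are no measure of joint expression.

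The partners and regulators of the inhibitors were followed as lists, described by how many of their genes passed, to be read against the 40.7% of all genes that passed for diet, 21.8% for Tert and 35.5% for TertCi. Of 5 cyclin-dependent kinases, 3 rose with diet over all nuclei and 2 fell: Cdk1, the kinase of mitosis, rose by 3.29 (SE 0.522), Cdk6 by 1.33 (SE 0.134) and Cdk4 by 1.31 (SE 0.306). The list's median was 1.31, against 0.05 over all genes. Of 9 cyclins, 4 rose and 1 fell, led by Ccnb1 (2.11) and Ccne2 (2.09). Of 13 pocket proteins and E2F factors, 5 rose and 3 fell, with the atypical repressors E2f7 (2.92) and E2f8 (2.71) ahead, and a list median of 0.11. All 20 cycling markers rose (median 2.47), among them Top2a by 2.85 and Mki67 by 2.79. The kinases that INK4 proteins bind and the genes of dividing cells thus were higher in the same mice in which Cdkn1a, Cdkn1c and Cdkn2b were. Of the cycling markers tested within a class, 10 of 18 rose with diet in macrophage-like nuclei (21.1% of all genes passed there) and 8 of 15 in adipocyte-like nuclei (26.9%), and none fell in either. The progenitor and macrophage markers were also higher in those adipocyte-like nuclei of mCherry HFD (1525 to 2611 CPM against 168 to 316, and 1280 to 1334 against 600 to 863), and their part in this count was not tested.

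In Tert HFD against mCherry HFD, 1 kinase rose (Cdk7) and 2 fell, Cdk4 by 1.09 and Cdk6 by 0.73, and 10 of 20 cycling markers fell (median -1.14, against -0.05 over all genes). In TertCi HFD 3 of 5 kinases fell, Cdk1 by 2.61, Cdk4 by 1.45 and Cdk6 by 0.97, and 19 of 20 cycling markers (median -1.76, against -0.10). Of 13 pocket proteins and E2F factors, only Rb1, the retinoblastoma gene, passed in Tert HFD, where it rose by 0.55. In TertCi HFD 2 rose, Rb1 among them, and 4 fell. In adipocyte-like nuclei Cdk6 rose with diet by 1.37 and fell by 1.23 in Tert HFD and 1.18 in TertCi HFD. At a finer clustering, with 113 and 29 adipocyte-like nuclei left in mCherry HFD, the sign of all 3 turned (-0.045, 0.15 and 0.18).

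Of 24 genes of p53 and its targets, 4 rose with diet over all nuclei and 6 fell, with a median of 0.18, a share close to that of all genes (40.7%). Gdf15, a stress-induced hormone, rose by 3.81 (SE 0.544), Plk2 by 3.02 (SE 0.239) and Psrc1 by 2.83 (SE 0.696), while Aen, Fas, Mdm4, Phlda3, Sesn2 and Zmat3 fell. The targets had no common direction. In Tert HFD 5 rose and 2 fell (Gdf15 by 2.25, Plk2 by 1.72), and Sesn2 rose by 1.55. In TertCi HFD 7 rose and 4 fell, among them Gdf15 by 3.49, Psrc1 by 3.02 and Plk2 by 2.78. Within macrophage-like nuclei Plk2 rose with diet by 2.30 and fell by 1.31 in Tert HFD and by 2.31 in TertCi HFD.

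Of 22 tested regulators of INK4 and KIP genes, 4 rose with diet and 5 fell, again a share close to the 40.7% of all genes. Skp2, the ubiquitin ligase subunit that marks p27 for destruction, rose by 2.04 (SE 0.171), and Foxo1, a transcription factor that can induce Cdkn1b, fell by 1.73 (SE 0.230). Id1, whose protein represses Cdkn2a, fell by 1.49 (SE 0.256). Both Skp2 and Foxo1 moved the other way in Tert HFD and TertCi HFD: Skp2 fell by 1.30 and 1.56, and Foxo1 rose by 1.60 and 2.36. The same directions passed in macrophage-like nuclei, where Skp2 fell by 1.07 and 1.01 and Foxo1 rose by 1.09 and 1.44, and in adipocyte-like nuclei, where Skp2 fell by 1.44 and 1.49 and Foxo1 rose by 0.94 and 1.60. These comparisons share the mCherry HFD mice. Cdkn1b transcripts themselves did not pass in any of them, and the protein, on which Skp2 acts, was not measured.

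Of 21 tested secreted factors associated with senescence, 11 rose with diet over all nuclei and 2 fell (median 1.33). The leading ones, Mmp12 (5.57), Spp1 (5.34) and Ccl8 (4.43), are also products of macrophages. Macrophage-like nuclei made up a larger share in the same mice, and the part of that share in these values was not tested. Within macrophage-like nuclei 3 of 15 tested factors rose with diet and 1 fell (21.1% of all genes passed). Within adipocyte-like nuclei 9 of 16 rose and 1 fell (26.9%). In the adipocyte-like nuclei of mCherry HFD macrophage markers summed to 1280 to 1334 CPM, against 600 to 863 in the other groups. Progenitor markers there summed to 1525 to 2611 CPM, against 168 to 316. The part of either in this count was not tested. Over all nuclei, in Tert HFD 1 rose and 7 fell, and in TertCi HFD 2 rose and 10 fell.

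The genes most like each member, by Pearson correlation of log2(CPM + 5) over 45 sums of 1 class in 1 mouse, are given as a description. These sums share mice, depth and free RNA. Nearest to Cdkn1a among 9564 genes were 4933423P22Rik (0.82), Gm35188 (0.78), Gm38357 (0.77), Gps2 (0.77) and Gm32036 (0.77). Nearest to Cdkn1b were Lima1 (0.78), Stx3 (0.78), Ascc3 (0.76), Prpf39 (0.74) and Cd9 (0.73). Cdkn2b lay closest to Ccdc73 (0.86), Snhg3 (0.83), Ggact (0.82), Phykpl (0.80) and Gm17106 (0.80). For Cdkn2c they were D5Ertd579e (0.79), Gabrg3 (0.78), Extl3 (0.78), Gm20532 (0.77) and Ptger3 (0.77), the last a prostaglandin receptor of adipocytes, and Gm20532 also led the adipocyte-like cluster that held most of those nuclei of Tert HFD rep136.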

How the data were processed

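Nuclei from frozen visceral fat of 8 mice were sorted and sequenced with 10x 3′ chemistry, per the labels' protocols. The authors deposited UMI counts per gene and barcode, unfiltered, and the file headers name Cell Ranger 7.1.0 while the submitters' processing notes name Cell Ranger 5.0.1, bcl2fastq 2.20.0 and build mm39. Nuclei were barcodes with 500 UMIs or more, at least 0.1 times the 99th percentile among the library's 5000 largest barcodes (987 to 4704 UMIs), 300 genes and at most 5% mitochondrial UMIs. The highest Scrublet scores were removed, 0.8% per 1000 nuclei. Clusters (scanpy 1.11.5, 2000 variable genes without the members, 30 components, 15 neighbours, Leiden resolution 1) were named from marker lists. Counts were summed per class and mouse, where at least 20 nuclei were present, and tested with edgeR 4.0.16 (quasi-likelihood test, TMM, filterByExpr, all groups in 1 fit, Benjamini-Hochberg over all genes). Differences between classes were tested with limma 3.58.1 (prior count 2), and DESeq2 1.42.0 was an alternative. CPM are UMIs per 1e6 UMIs of the set summed. Called nuclei held 32.6% to 46.9% of a library's UMIs. The members and lists were chosen with earlier results of these data known. Every member was named in every class, at most 3 passing genes per list and comparison by size of change, and the 5 genes most like each member with at least 500 UMIs. The fits were tested on simulated counts.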

Additional observations from a re-analysis of the deposited data

Results flagged for a closer look

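For Cdkn1b the difference between Tert HFD and TertCi HFD had opposite signs in adipocyte-like and endothelial-like nuclei, without overlap between the mice of the groups in either class. Adipocyte-like nuclei held 13.3 and 13.1 CPM in Tert HFD against 10.1 and 8.62 in TertCi HFD (log2 fold change 0.32). Endothelial-like nuclei held 36.6 and 34.3 CPM against 37.1 and 47.6 (-0.25). The gap of 0.57 between these values was not tested, and neither of them passed the edgeR test. In endothelial-like nuclei the nearest mice of the groups lay at 36.6 and 37.1 CPM. The search covered every member, comparison and pair of classes that limma had not tested, and gave only this case. How often all genes show such a pattern was not counted.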

How the results depend on the processing

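Over 14 settings other than leaving out a library, 40 fold changes of members gave 411 values, of which 370 kept direction and side of the threshold, 17 lost their call, 24 gained one and 0 changed sign. Over all nuclei Cdkn1a was called for TertCi over all barcodes (-1.08), and Cdkn1c lost its diet call with DESeq2 (1.28), no filter (1.27) and all barcodes (1.43). Cdkn2c lost its diet call with library totals only (-1.22), with at least 1000 UMIs in every library (-1.56, adjusted p 0.0610) and over all barcodes (-1.26, 0.0857), its Tert call over all barcodes (1.54, 0.0675) and its TertCi call with at least 1000 UMIs (1.62, 0.0638) and over all barcodes (1.35, 0.0782). With DESeq2 the diet call of Cdkn2b in adipocyte-like nuclei was lost (2.14), as were, in macrophage-like nuclei, those of Cdkn1a for diet (2.73) and TertCi (-1.41) and of Cdkn2b for Tert (-2.83) and TertCi (-3.07). In macrophage-like nuclei the diet call of Cdkn1a was also lost with doublets kept (2.66, 0.0513) and at Leiden resolution 2 (2.62, 0.0574), and its Tert difference was called with no filter (-1.24, 0.0300) and without the cycling cluster (-1.35). Over all nuclei 2 members were called for diet and 1 for Tert over all barcodes, and for TertCi 4 with library totals only and 1 with at least 1000 UMIs. The cause of these changes was not tested. Without the cycling cluster the fitted diet value of Cdkn2b there was 7.83, which depends on the prior count because mCherry SD had 0 UMIs. In lipid-associated nuclei Cdkn2b had too few UMIs for a test without that cluster.

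Without single libraries, the lowest and highest values were as follows, with sign changes only for Cdkn1a in lipid-associated nuclei. Over all nuclei Cdkn1a ran from 2.11 to 2.66 for diet, -1.39 to -0.45 for Tert and -1.03 to -0.59 for TertCi; Cdkn1c from 1.16 to 1.32 for diet; Cdkn2b from 1.27 to 1.65, -1.39 to -1.22 and -1.35 to -1.07; and Cdkn2c from -1.99 to -1.41, 1.37 to 2.67 and 1.06 to 2.40. In adipocyte-like nuclei Cdkn1a ran from 2.47 to 4.47, -0.91 to -0.10 and -1.35 to -0.12, and Cdkn2b from 1.60 to 3.16 for diet. In macrophage-like nuclei Cdkn1a ran from 1.94 to 3.24, -3.03 to -0.76 and -1.53 to -1.19, and Cdkn2b, in 4 fits each, from 8.35 to 8.38 (set by the prior count, with 0 UMIs in mCherry SD), -2.70 to -2.64 and -2.78 to -2.41. In lipid-associated nuclei the fitted Tert values of Cdkn2b ran from -7.99 to -7.89, which the prior count sets because Tert HFD had 0 UMIs (the measured bound is at least 6.72-fold lower), and Cdkn1a from -2.01 to 0.33 for Tert and -0.35 to 0.079 for TertCi. The number of members called over all nuclei ran from 1 to 4 for diet, 0 to 2 for Tert and TertCi and 0 to 0 for Tert against TertCi. Among 152 named list fold changes with 1560 alternatives, 1396 kept their call, 161 lost it and 3 changed sign, all Cdk6 in adipocyte-like nuclei at Leiden resolution 2 (-0.045, 0.15 and 0.18).

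No paired analysis was possible because the groups share no replicate number. With 2 mice a group, the p-values set each difference against a spread estimated from all libraries in the fit. They do not measure the spread of the 2 mice of a group alone, and they cover only these mice. Depth left Cdkn1c, Cdkn2a and Cdkn2d untested within every class, and Cdkn1a and Cdkn2b untested outside adipocyte-like, macrophage-like and lipid-associated nuclei. With library totals only, the share of passing genes that were higher went from 60.5% to 87.1% (diet), 36.1% to 8.55% (Tert) and 40.3% to 8.81% (TertCi) in adipocyte-like nuclei, and from 54.7% to 65.6%, 39.7% to 27.6% and 41.1% to 29.1% in macrophage-like nuclei.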
